A study of Homo sapiens with 3 samples.

Results

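The genes that encode the proteins of the cytosolic ribosome were examined in SH-SY5Y, an adherent human neuroblastoma cell line. Members were the protein-coding genes whose symbol starts with RPL or RPS followed by a number, P or A, with RPS6 kinase genes, names that end in P or P and a number, and genes on chromosome Y left out; 88 of the 60660 genes of the deposited table met the rule. Of these, 77 are core genes of the ribosome (46 of the large subunit and 31 of the small), 8 are paralogs that resemble a core gene (RPL3L, RPL7L1, RPL10L, RPL22L1, RPL26L1, RPL36AL, RPL39L and RPS27L), and 3 are readthrough genes that join a ribosomal protein gene to its neighbour (RPS10-NUDT3, RPL17-C18orf32 and RPL36A-HNRNPH2). The rule left out 10 RPS6 kinase genes, 2 genes on chromosome Y and RPS19BP1. No member lacked a value, and every member had a value above 0 in at least 1 library and was tested.

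The series holds 1 group of 3 RNA-seq libraries, called replicates 1, 2 and 3, each made from polyadenylated RNA of a separate flask of untreated cells. All of them are the same line and the labels name no second condition, so the comparisons are between genes within the same libraries, and the p-values describe the spread between flasks of 1 line. Values are FPKM, which divides the fragments of a gene by its transcript length and by library size, a scale meant for comparing levels of different genes per length. Core genes are short, with a median coding length of 456 bases, beside 1278 over nuclear protein-coding genes. How length was handled for short transcripts is not given, so comparisons with longer genes carry this limit. The cell type, and not the identity of the line, was checked by 6 noradrenergic neuroblastoma markers, which had means of 286 to 2405.3 FPKM. Of 12 markers of leukocytes, endothelium, fibroblasts, epithelium and erythroid cells, the highest was DCN, a fibroblast gene, at 14.7 FPKM. Of these 12, 5 were listed at 0 in every library. The marker sums of fibroblasts ranged from 17.176 to 22.87 FPKM over libraries.

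A ribosome is made of a small subunit, which reads the messenger RNA, and a large subunit, which joins amino acids. Each core protein is usually present as a single copy per ribosome, except for the stalk proteins RPLP1 and RPLP2, which are present in more than one copy. Messenger RNAs of ribosomal proteins typically begin with a C followed by a run of pyrimidines, the terminal oligopyrimidine tract, through which the mTOR pathway and the RNA-binding protein LARP1 control their translation. Growing tumour cells are known to make many ribosomes, and mutations in several of these genes cause Diamond-Blackfan anaemia, a failure of red cell production.

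The first bases of the transcripts are shown because they carry a feature that was more frequent in the core genes than in other protein-coding genes. RefSeq promoters (GRCh38.p14, the assembly also called hg38) were matched by symbol for 70 members, 62 of them core genes. Each line gives 12 bases before the annotated start and 18 bases from the start on, 5′ to 3′ on the strand of the gene. Capitals mark a run of pyrimidines that begins with C and lies at or near the start. They begin at most 5 bases before the start, so a run may reach further back than is marked. Among the core genes with the highest levels, the starts read:
RPL37A (chr2:216498832-216498861, + strand): ccgcgtctCTTCCTTTCTgggctcggacct
RPS27 (chr1:153990750-153990779, + strand): tccgctttcgCTCCTTTCCggcggtgacga
RPS3 (chr11:75399506-75399535, + strand): cgcgagccaCTTCCTTTCCTTTCagcggag
RPL38 (chr17:74203666-74203695, + strand): ggaagtctcgttCTTTTTCgtccttttccc
RPS24 (chr10:78033851-78033880, + strand): cgaatcgtggttCTCTTTTCCTCCTTggct
RPLP2 (chr11:809955-809984, + strand): cgtcggcgCCTTCCTTTTCCTCCCTgtcgc
In all 6 of these, the base at the annotated start is a C and the next 4 are pyrimidines. Core genes of low level with an entry were of both kinds:
RPS10 (chr6:34426052-34426081, - strand): cgcatgctCCTTCCTTTCCagccccggtac
RPSA (chr3:39406708-39406737, + strand): cctgccgcctgtCTTTTCCgtgctacctgc
RPL22 (chr1:6199578-6199607, - strand): ttcgctcaCCTCCCTTTCTaactccgctgc
RPL15 (chr3:23916533-23916562, + strand): gctggggcctgctggaggagcttcacgcag
RPS26 (chr12:56041906-56041935, + strand): acacataacctcgattttcttccgccatcc
RPS27A (chr2:55231891-55231920, + strand): ggagtgacacacaagacccagactcttccc
RPS10, RPSA and RPL22 meet this condition, whereas RPL15, RPS26 and RPS27A have no such run that begins within 5 bases of the start. RPS3A (791 FPKM), not shown, also meets it. RPL4 (3365.1 FPKM) and RPL11 (2978.3 FPKM), also not shown, do not. Whether the motif goes with level was not tested. Paralogs with an entry that the results turn on read:
RPL22L1 (chr3:170870178-170870207, - strand): ggccgtagCTTCCTCTCTgctctcgcggcc
RPL36AL (chr14:49620609-49620638, - strand): tttcttcCCTTTCCTgttaggcgagagctg
RPS27L (chr15:63157460-63157489, - strand): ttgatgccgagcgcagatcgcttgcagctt
RPL10L (chr14:46651764-46651793, - strand): gcgtagttaagagagcgcattttgacttcg
Of these 4, RPL22L1 has a C at the start followed by 4 pyrimidines. In RPL36AL a run, marked from 5 bases before the start, spans it, but the start base is not followed by 4 pyrimidines. RPS27L and RPL10L have no run that begins within 5 bases of the start.

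The motif searched was a C followed by at least 4 bases that are each C or T, on the sense strand only, since the feature belongs to the RNA; overlapping matches in a gene were counted once. The C was the annotated start base itself in 42 of 62 core genes (67.7%), in 685 of 15772 other protein-coding genes (4.34%), in 5 of 69 genes of mitochondrial ribosomal proteins (7.25%) and in 1 of 6 paralogs. The C lay within 5 bases of the start, on either side, in 50 of 62 core genes (80.6%), in 21.9% of the other protein-coding genes, in 21.7% of the mitochondrial ribosomal protein genes and in 2 of 6 paralogs. A match describes these letters at an annotated start, which may differ from the start used in these cells.

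All 77 core genes were expressed at high levels, with a median of 1724.8 FPKM and a range from 383 FPKM for RPS26 to 6151.2 FPKM for RPL23, a 16.1-fold span. The middle of the distribution was narrower, with quartiles of 1067.6 and 2670.2 FPKM. By comparison, the median over all genes tested was 1.08 FPKM and that over nuclear protein-coding genes tested was 9.11 FPKM. In the highest 20 nuclear protein-coding genes by mean, 15 were core genes, and in the highest 100, 65 were.

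Each gene was tested against fixed levels of 1, 100 and 1000 FPKM with limma's moderated test on log2(FPKM + 0.1), with Benjamini-Hochberg adjusted p under 0.05 over 31736 genes. Of the 88 members, 86 lay above 1 FPKM, beside 45.5% of all genes and 70.6% of protein-coding genes tested, and 2 lay below it, beside 43.7% and 24.6%. Against 100 FPKM, 78 members lay above, beside 3.08% of all genes and 5.28% of protein-coding genes, 9 lay below, beside 94.6% and 92%, and 1 passed in neither direction. The 78 were all 77 core genes and the paralog RPS27L. Against 1000 FPKM, 55 members, all of them core genes, lay above, beside 0.369% of all genes and 0.537% of protein-coding genes. Below it lay 23, beside 99.4% and 99.3%, of which 12 were core genes, and 10 core genes passed in neither direction. The 55 made up 47% of the 117 genes of the table called above 1000 FPKM and 69.6% of the 79 nuclear protein-coding genes so called.

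The number above 1000 FPKM depends on the scale. Rescaling to TPM moved all log2 values by -0.47, -0.54 and -0.46 in replicates 1, 2 and 3 and left 42 members above 1000; rescaling over genes off the mitochondrial chromosome moved them by 0.33, 0.33 and 0.32 and left 63. The core genes below 1000 numbered 23 and 6 on these scales, and in FPKM they numbered 7 without replicate 1 and 6 without replicate 3.

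**Figure D1:**
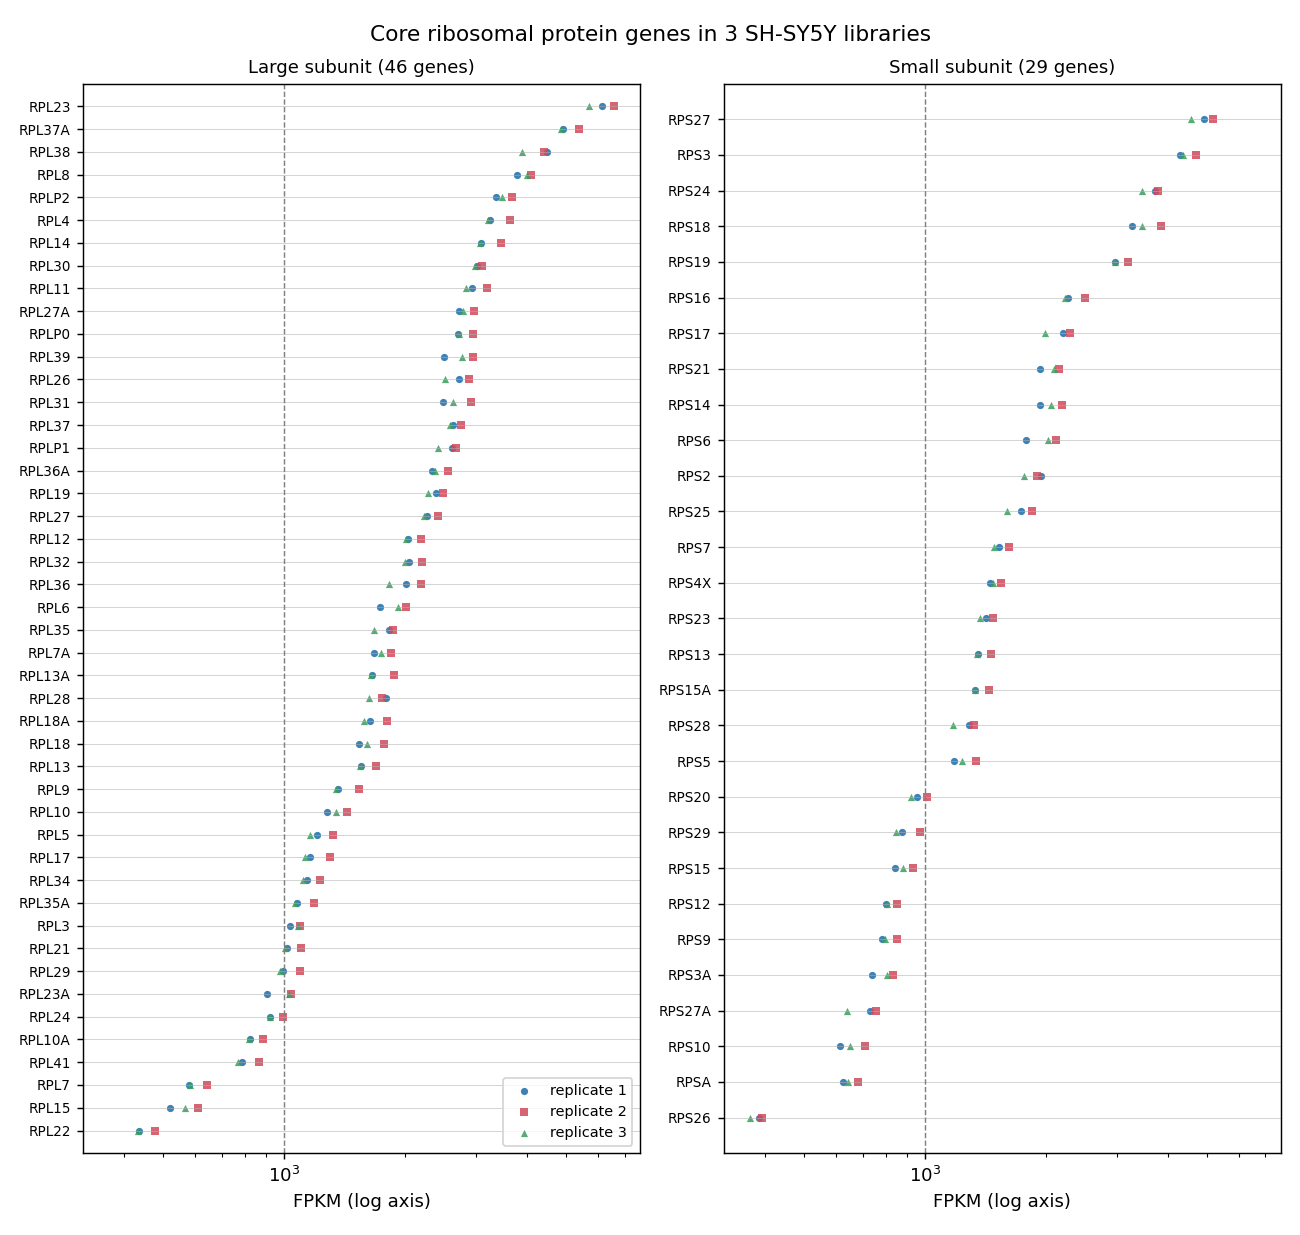
FPKM of 75 of the 77 core genes in each of the 3 libraries (log axis), large subunit on the left and small subunit on the right, ordered by mean, with a dashed line at 1000 FPKM. Levels run from RPS26 at 383 to RPL23 at 6151.2 FPKM, and replicate 2 holds the highest value in 74 of all 77 core genes.

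RPL23, a large subunit protein that also binds MDM2, had the highest level, with 6140.4, 6600.7 and 5712.4 FPKM in replicates 1, 2 and 3 (6151.2 ± 444, SD, n = 3). It lay 2.62 (SE 0.0799) above 1000 FPKM on the log2 scale (limma, adjusted p = 3.73e-05). RPL37A, also of the large subunit, had 4934.2, 5396.8 and 4863.4 FPKM, and its values did not overlap those of RPL23.

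RPS27, a small subunit protein with a zinc finger, had 4912.1, 5186.9 and 4584.6 FPKM. RPS3, which lies at the entry of the messenger RNA and also acts in DNA repair, had 4288.0, 4713.9 and 4367.9 FPKM. RPL38, known for its part in the translation of Hox messenger RNAs in the mouse, had 4481.6, 4404.9 and 3889.1 FPKM and was among the few core genes in which replicate 1 rather than 2 was highest. RPL8 had 3778.4, 4092.3 and 3994.7 FPKM. RPS24 had 3719.0, 3793.1 and 3451.9 FPKM. These high genes include members of both subunits, and the 10 highest core genes held 28.6% ± 0.165 (SD, n = 3) of the summed FPKM of all core genes.

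RPS26, which lies at the exit of the messenger RNA, was the lowest core gene, with 388, 393 and 367 FPKM (383 ± 14.1, SD, n = 3), below 1000 FPKM by a log2 difference of -1.39 (SE 0.0689). RPL22, which has roles outside the ribosome in lymphocytes, had 436, 478 and 433 FPKM. Its values did not overlap those of RPS26. RPL15 had 520, 611 and 566 FPKM, and RPL7 had 581, 645 and 585 FPKM. The ranges of this pair overlapped, although RPL7 was the higher in each library.

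RPSA, the laminin receptor precursor and a small subunit protein, had 626, 681 and 645 FPKM. RPS10 had 615, 710 and 650 FPKM. RPS27A, which encodes ubiquitin fused to a ribosomal protein, had 730, 757 and 641 FPKM, and RPS3A had 737, 833 and 804 FPKM. The other core genes called below 1000 FPKM were RPL41, RPS9, RPS12 and RPL10A, with means of 806 to 842 FPKM. In the whole order of 77 genes, 73 of the 76 neighbouring pairs had overlapping ranges over the libraries, while 32 pairs had the same sign of difference in every library, so most neighbours could not be ranked by range.

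Large subunit genes had a median of 1834.6 FPKM and small subunit genes of 1489.4 FPKM. The difference of medians on the log2 scale was 0.32, 0.33 and 0.27 in the libraries (0.31 ± 0.0339, SD, n = 3), positive in each. This SD describes libraries that measure the same genes, and not the spread between genes. Quartiles were 1167.2 and 2726.7 FPKM for large subunit genes and 893 and 2243.5 FPKM for small subunit genes, so the distributions overlapped. The difference between subunits was not tested. Above 1000 FPKM lay 34 of 46 large subunit genes and 21 of 31 small subunit genes. The large subunit genes, which are 46 of the 77 core genes, held 62.4% ± 0.0749 (SD, n = 3) of the summed FPKM of core genes. This share is thus near their share of the genes.

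Groups of core genes by role were described by their counts, beside 71.4% of all core genes above 1000 FPKM. The stalk genes, whose proteins recruit the GTPases of translation, were all high, with a median of 2790.3 FPKM and 3 of 3 above 1000. RPLP2 had 3350.0, 3670.4 and 3481.7 FPKM, RPLP0 had 2707.3, 2948.1 and 2715.7 FPKM, and RPLP1 had 2613.4, 2675.2 and 2412.4 FPKM. Values of RPLP2 did not overlap those of RPLP0 or RPLP1.

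RPL5 and RPL11 bind the 5S ribosomal RNA, and as a free particle they inhibit MDM2 and so stabilise p53. RPL11 had 2933.3, 3180.9 and 2820.7 FPKM and RPL5 had 1204.3, 1323.9 and 1160.8 FPKM. The ranges of this pair did not overlap. Of 9 genes whose proteins line the exit tunnel of the nascent chain or its rim, 7 lay above 1000 FPKM (median 2382.5), from RPL22 at 449 to RPL4 at 3365.1 FPKM.

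Of 20 genes of Diamond-Blackfan anaemia, 14 lay above 1000 FPKM, 3 below and 3 in neither, with a median of 1591.8 FPKM. RPS19, the gene most often mutated in that disease, had 2958.4, 3183.3 and 2964.2 FPKM. RPS14, whose loss is a feature of the 5q- syndrome, had 1924.3, 2181.8 and 2050.2 FPKM. Of 4 genes whose proteins are ubiquitinated on stalled ribosomes, RPS2 and RPS3 lay above 1000 FPKM, RPS10 lay below and RPS20 passed in neither direction. RPS6, the target of the S6 kinases, had 1781.4, 2117.0 and 2021.6 FPKM, and RPS4X, an X-linked gene, had 1450.9, 1539.7 and 1477.5 FPKM.

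Paralogs were much lower than core genes, with a median of 38.8 FPKM, and together they held 0.248% ± 0.0124 (SD, n = 3) of the summed FPKM of all members. The lowest core gene, RPS26, was 2.84 times the highest paralog. RPS27L, a target of p53, was the highest paralog, with 134, 138 and 132 FPKM, and the only one above 100 FPKM (limma, log2 difference 0.43, SE 0.0665, adjusted p = 0.00606). RPL36AL had 94.9, 97.8 and 97.4 FPKM and passed in neither direction against 100 FPKM (adjusted p = 0.511).

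RPL7L1, which acts in ribosome production, had 46, 41.7 and 45.1 FPKM. RPL22L1, which is known to respond to the loss of RPL22, had 38.1, 40.7 and 43.2 FPKM. RPL39L, a testis-enriched form, had 38.2, 34.6 and 37.9 FPKM, and RPL26L1 had 33, 32.5 and 32.3 FPKM. These 4 lay below 100 and above 1 FPKM, and none of their values reached those of RPS27L.

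RPL3L, the form known from heart and skeletal muscle, had 0.257, 0.582 and 0.301 FPKM and lay below 1 FPKM (limma, adjusted p = 0.0124, or 0.0612 without replicate 3, where the call is lost). RPL10L, a retrogene known from testis, was at 0.076 FPKM in replicate 1 and listed at 0 in the others (adjusted p = 0.000802); without replicate 1 it had no value above 0 and was not tested. By the step of low values that 1 read is worth, the RPL10L value came to 1 read. The limit that a count of 0 allows, taken as 3 reads, is 0.172 FPKM in replicate 2 and 0.113 FPKM in replicate 3 for this gene.

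Each paralog was set beside its core partner within each library, and in all 8 pairs the partner was higher in 3 of 3 libraries. With 3 libraries the exact two-sided sign-flip permutation test cannot go below p = 0.25, which each pair had before and after Benjamini-Hochberg adjustment over 8 pairs. The differences on the log2(FPKM + 0.1) scale were smallest for RPL22 over RPL22L1, at 3.46 ± 0.122 (SD, n = 3; 11-fold by the means), and RPL7 over RPL7L1, at 3.77 ± 0.158 (13.6-fold). RPL36A, with 2327.4, 2544.4 and 2361.8 FPKM, exceeded RPL36AL by 4.64 ± 0.0542 (24.9-fold), and RPS27 exceeded RPS27L by 5.18 ± 0.0547 (36.3-fold).

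RPL39, with 2494.6, 2948.2 and 2761.6 FPKM, exceeded RPL39L by 6.21 ± 0.193 (74.2-fold), and RPL26, with 2717.2, 2881.0 and 2509.0 FPKM, exceeded RPL26L1 by 6.37 ± 0.0952 (82.9-fold). RPL3, with 1031.4, 1092.2 and 1079.2 FPKM, exceeded RPL3L by 11.18 ± 0.465. This difference was 9.6 with a pseudocount of 1 and 11.51 with a pseudocount of 0.01, since RPL3L was low. RPL10 had 1274.1, 1433.9 and 1344.4 FPKM, a log2 difference of 13.45 ± 0.544 from RPL10L that depends on the pseudocount, since RPL10L was at or near 0. The 2 pairs with the smallest differences are also those with the lowest core partners of the 8.

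**Figure D2:**
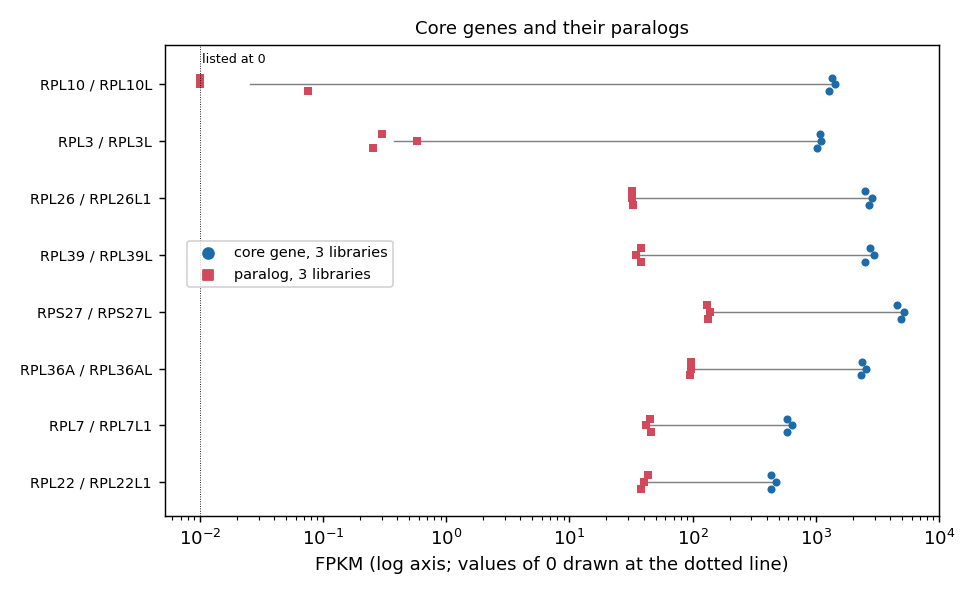
FPKM (log axis) of 8 core genes (circles) and their paralogs (squares) in each of the 3 libraries, joined at their means; values of 0 are drawn at the dotted line. The core gene is higher in every library, by a log2 difference from 3.46 (RPL22) to 13.45 (RPL10).

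The sequences of each pair were compared, since near-identical copies can share reads. Identity of the aligned coding sequences ran from 55.5% for RPL7 and RPL7L1 to 94.8% for RPL39 and RPL39L, with 89.3% for RPL10 and RPL10L. Windows of 50 bases, the read length, were almost never the same: at most 2.55% of the windows of a paralog (RPL39L) were found in its partner, and 5 of the 8 paralogs shared none. With any other gene, RPL26L1 shared 52.9% of its windows, of which the pseudogene RPL26P30 held nearly all (52%). RPL7L1 shared 20.4% and RPL36AL 14.3%, and the other 5 shared at most 2.55%.

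The readthrough genes lay between 1 and 100 FPKM. RPS10-NUDT3 had 74.0, 69.5 and 69.6 FPKM, RPL17-C18orf32 had 19.5, 26.7 and 29.3 FPKM, and RPL36A-HNRNPH2 had 22.3, 23.5 and 21.5 FPKM. Between 90.8% and 99% of their 50-base windows are also found in another gene, so their values rest on how reads were divided between overlapping genes.

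The same question applies to the core genes, most of which have processed pseudogenes. A median of 25.6% of the 50-base windows of a core gene's main transcript were found in a transcript of another gene, with a range of 0% (RPL38) to 90.3% (RPL17, through its readthrough gene). Over 50% of windows were shared in 22 of 77 core genes (28.6%), beside 7.35% of 19362 other protein-coding genes, whose median was 0. The main transcript of 1 member, RPL36A (80.3% shared), depended on the order in which annotation criteria were applied; without it the count was 21 of 76. Each percentage is over all windows of the chosen main transcript, so it depends on the length of that transcript. The number of windows ran from 247 for RPS29 to 7637 for RPL37, whose coding length is 291 bases and whose share was 1.34%.

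Across the 77 core genes the share went with a lower level, with a Spearman coefficient of -0.435 and a Pearson coefficient of -0.395 for log2 FPKM. This is a description across genes of the same 3 libraries, which share depth and annotation. Long main transcripts were annotated for some of the high genes, such as RPL37A (3598 windows) and RPL27A (4867 windows). Whether the coefficients hold with other transcripts of these genes was not tested. The 38 genes above the median share had a median of 1298.2 FPKM and the other 39 a median of 2296.4 FPKM. Of the 8 lowest core genes, 6 had over 50% of windows shared: RPS26 (56.8%), RPL15 (59.3%), RPL7 (66.2%), RPSA (66.1%), RPS10 (82.2%) and RPS3A (83.4%). The others were RPS27A at 48.5% and RPL22 at 16.1%. Among the 8 highest, RPS27 alone exceeded 50%, at 66.5%. How reads with more than 1 match were divided is not stated by the labels, and the part of shared sequence in these levels was not tested.

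**Figure D3:**
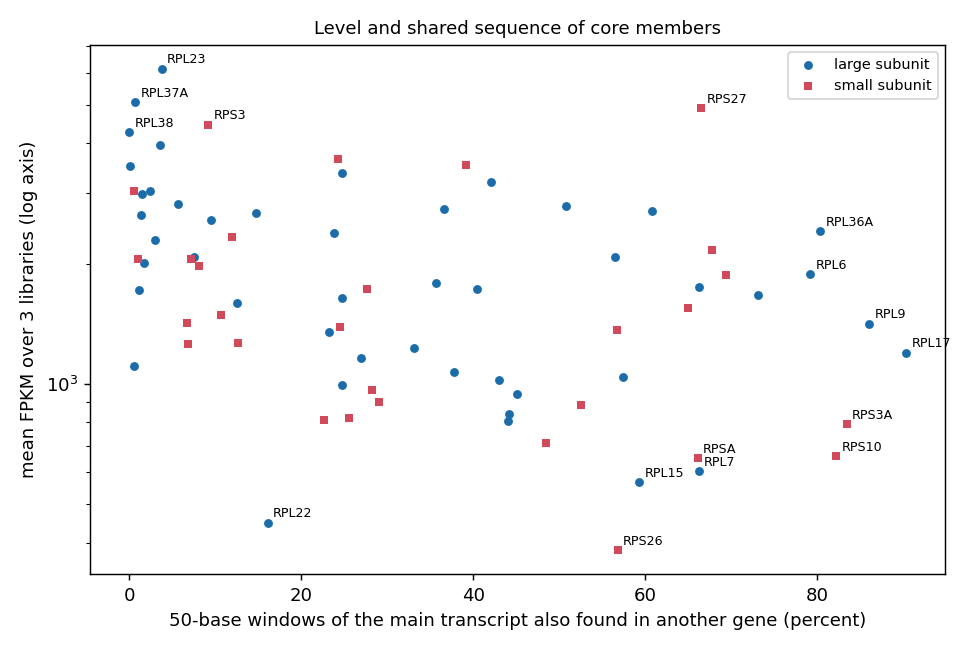
Mean FPKM of 75 of the 77 core genes (log axis) against the percentage of 50-base windows of the main transcript that are also found in another gene; circles are large subunit genes and squares small subunit genes. RPL38, RPL37A and RPL23 lie at the upper left, while RPS10 and RPS3A lie at the lower right.

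Pseudogene rows named after a core gene held little of the summed FPKM. What they held depends on how reads with more than 1 match were divided, which is not given. Genes under clone names are not counted among them, such as AC004057.1, in which 56.8% of the windows of RPS26 are found. The table has 1137 pseudogene rows named after 76 of the 77 core genes; 567 were listed at 0 in every library, and 45 lay above 1 FPKM (limma). Their summed FPKM was 485, or 0.311% ± 0.0213 (SD, n = 3) of that of the members. RPL9P9, on chr15:82372196-82372912, had 45.3, 53.5 and 51.1 FPKM, and 86% of the windows of RPL9 are found in it. RPL32P29 had 40.5, 42.6 and 34.2 FPKM and lies within RPS29 on the same strand. RPS4XP22 had 22, 25 and 21.7 FPKM. None of these 3 reached the level of the lowest core gene.

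All members together held 22.6%, 24.6% and 22.4% of the summed FPKM of nuclear protein-coding genes (23.2% ± 1.23, SD, n = 3). Of the FPKM of all genes of the table they held 11.1% ± 0.215, and of all genes off the mitochondrial chromosome 19.6% ± 1.04. These are shares of FPKM, which is per length, and not of reads or molecules.

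Most core genes were highest in the same library. Replicate 2 held the highest FPKM in 74 of 77 core genes (96.1%), beside 20.5% of 1015 other nuclear protein-coding genes whose mean reached 100 FPKM and 19.2% of 78 mitochondrial ribosomal protein genes. The median deviation of core genes from their own mean was -0.036, 0.082 and -0.048 on the log2 scale in replicates 1, 2 and 3, and that of the other genes was 0.022, -0.043 and 0.018. With TPM the count for replicate 2 was 51 of 77 (66.2%). On that scale replicate 2 was highest in 7.88% of the 1015 other genes and in 8.97% of the mitochondrial ribosomal protein genes. The count was 74 under TPM off the mitochondrial chromosome, beside 21.6% of the other genes, and 74 under median-ratio rescaling, beside 21.1%. In FPKM, replicate 2 was highest in 53 (96.4%) of the 55 core genes with at most 50% of windows shared.

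**Figure D4:**
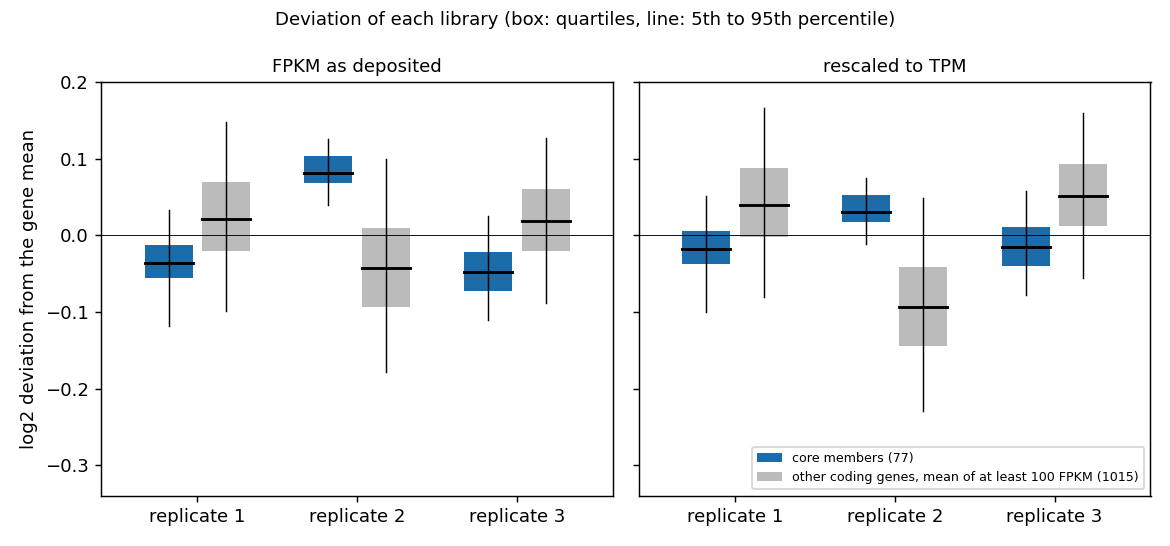
Deviation of each library from the gene's mean log2 value for the 77 core genes and 1015 other nuclear protein-coding genes whose mean reached 100 FPKM, as deposited (left) and as TPM (right); boxes are quartiles with the median, and lines run from the 5th to the 95th percentile over genes. Core genes lie highest in replicate 2 on both scales, with a median deviation of 0.082 for FPKM.

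The shift is small beside the differences between genes. The median SD of log2 values of core genes was 0.0813, from 0.0283 for RPL30 to 0.131 for RPL36, beside 0.09 for nuclear protein-coding genes of at least 10 FPKM and 0.0764 for the 1015 others whose mean reached 100 FPKM. Without replicate 2 the median SD of core genes was 0.0337. The other genes were not measured without replicate 2, so this value has no counterpart among them. RPL36 had 2007.6, 2187.5 and 1823.2 FPKM and RPS18 had 3269.5, 3861.9 and 3446.8 FPKM, among the most variable core genes. RPL30 had 3017.8, 3097.6 and 2980.8 FPKM. RPL37 had 2624.5, 2748.6 and 2573.1 FPKM and RPS12 had 799, 852 and 807 FPKM; these are among the least variable. Across the 77 genes the log2 values of any pair of libraries had a Pearson coefficient of 0.996 to 0.998, a description over genes of the same cells.

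Genes that act in making the ribosome had lower medians than the core genes. FAU and RACK1, which encode ribosomal proteins under other names, had means of 736 ± 26 and 3943.8 ± 210 FPKM (SD, n = 3), within the range of the core genes. Of 13 genes of RNA polymerase I, which transcribes ribosomal RNA, all lay above 1 FPKM, 2 above 100 and 0 above 1000, with a median of 23 FPKM; TAF1D (146 FPKM) and POLR1D (143 FPKM) were highest. Of 32 genes of nucleolar processing, all lay above 1 FPKM, 10 above 100 and 1 above 1000, with a median of 49.3 FPKM. NPM1, a nucleolar chaperone, had 1336.1, 1389.4 and 1238.1 FPKM, NCL (nucleolin) had 767, 669 and 744 FPKM, and UTP20 was lowest at 4.96 FPKM.

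Of 23 genes of subunit maturation and export, 3 lay above 100 FPKM, led by the export receptor XPO1 at 234 FPKM, with GNL3L lowest at 7.94 FPKM. Of 11 chaperones of single ribosomal proteins or of nascent chains, NACA (1300.7 FPKM) and BTF3 (1240 FPKM), the subunits of the nascent polypeptide-associated complex, lay above 1000 FPKM, and HEATR3 was lowest at 9.07 FPKM. Of 12 regulators, LARP1 (197 FPKM) and EIF4EBP1 (151 FPKM) lay above 100 FPKM, and RPS6KA6 was lowest at 9.49 FPKM. The 78 mitochondrial ribosomal protein genes all lay above 1 FPKM, with 6 above 100, 0 above 1000 and a median of 43.2 FPKM, from MRPL46 at 9.72 to MRPL51 at 303 FPKM. The lowest core gene thus lay above the highest mitochondrial one.

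**Figure D5:**
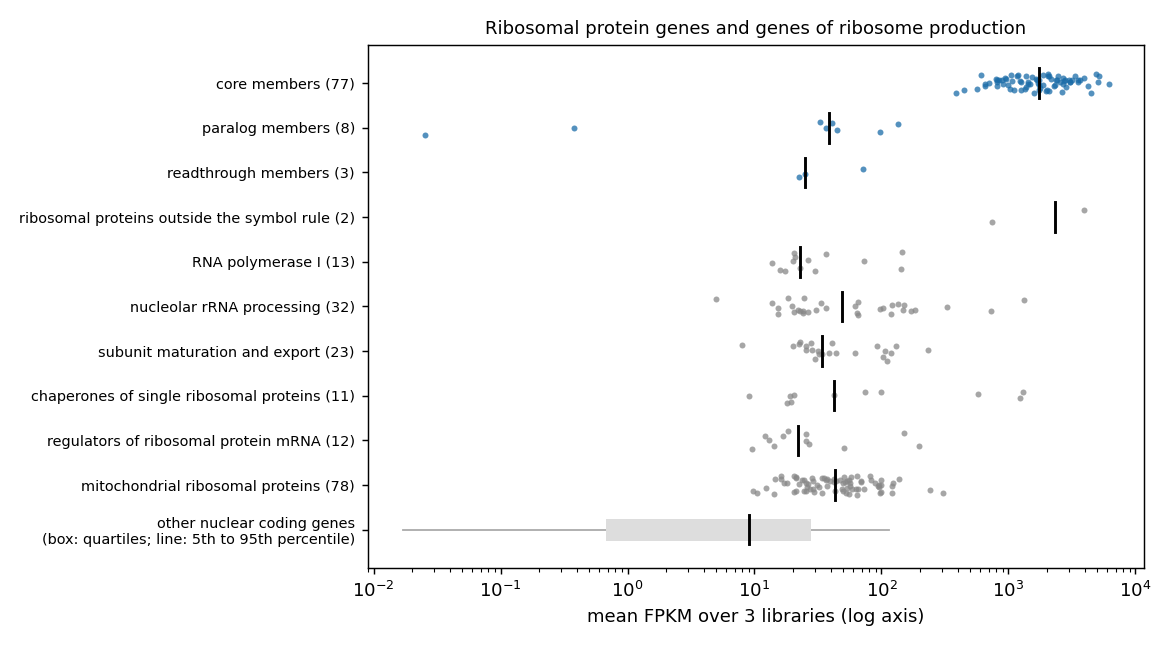
Mean FPKM (log axis) of core, paralog and readthrough members (blue) and of genes of ribosome production (grey), each point a gene and each black bar a median; the lowest row gives other nuclear protein-coding genes. Core genes have a median of 1724.8 FPKM, and mitochondrial ribosomal protein genes of 43.2 FPKM.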

How the data were processed

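The table holds FPKM values deposited by the authors for 3 libraries, 1 per flask. Per the submitters' processing notes, bcl2fastq, FastQC 0.10.1, TopHat2 2.1.1 and Cufflinks 2.2.1 were used with hg38; settings, annotation release and strand handling: not given in the sources used here. Depth was not taken from a count table. In low values, 97.4%, 97.3% and 96.1% were whole reads to within 0.1 (chance 20%), under an assumed fragment length of 200 bases. On 1 kb left after this length is taken off, 3 reads correspond to 0.139, 0.105 and 0.0689 FPKM. This limit covers counting error only.

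Identifiers were matched to GENCODE 29 (57046 of 60660); of 154 shared names the highest was kept. Every gene that was not 0 throughout entered an intercept-only, two-sided limma fit (version 3.58.1, R 4.3.3) of log2(FPKM + 0.1), a scale that understates changes of low genes; the script was tested on simulated data. Main transcripts were chosen by APPRIS, RefSeq status, support level and coding length, an order settled after transcript lengths and the RPL36A coding sequence had been inspected. Paralog coding sequences were aligned globally with Biopython 1.88. Alternatives were pseudocounts of 1 and 0.01, TPM, median-ratio rescaling, other filters, other denominators and each library left out.

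Values per library, or means for the lists, are given for the 8 highest and 8 lowest core genes, the 5 most and 5 least variable, paralogs, readthrough genes, role groups, and the highest and lowest genes of each list; some genes that this rule names are not reported here. The members and lists were chosen with earlier results of these data known.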

Additional observations from a re-analysis of the deposited data

How the results depend on the processing

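No pairing of samples between groups was possible because the series has 1 group. Paralogs and their partners were paired within each library. Of 72 counts of members above or below a level under the alternatives, 66 lay within 1.5 times the reported count. The number below 1 FPKM was 0 with a mean of at least 1 FPKM required, which removes low genes by construction, and 1 to 2 with a library left out (1 without replicate 1, where RPL10L has no value above 0, and 1 without replicate 3); among core genes it was 0. The number of core genes below 100 FPKM was 0 and below 1000 FPKM 12. With a library left out, 50 to 51 members lay above and 17 to 22 below 1000 FPKM. All 48 paralog values kept their direction.

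The share of members was 11.1% over all genes, 19.6% off the mitochondrial chromosome, 19.7% there with pseudogenes added, and 22.5% to 23.6% with a library left out. The large minus small subunit difference was 0.23 with means, 0.22 with paralogs and 0.29 to 0.32 with a library left out. The median SD was 0.0473 with TPM and 0.0337 to 0.0888 with a library left out. The tally of core genes highest in replicate 2, and its alternatives, were chosen after seeing the data. Unknown handling of multiply matching reads and the lack of counts limit levels of genes with pseudogenes.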

Other observations

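Many core genes host small nucleolar RNA genes, which guide the modification of ribosomal RNA, in their introns. A small nucleolar RNA gene lay inside 28 of 77 core genes on the same strand (36.4%), 60 such genes in all, beside 274 of 19951 protein-coding genes (1.37%). RPL4 held 5. The 28 host genes had a median of 1735.8 FPKM and the other 49 a median of 1724.6 FPKM. Chromosome 19 held 12 of the 77 core genes (15.6%), beside 7.38% of protein-coding genes, and chromosomes 7 and 21 held none.

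Core genes had a median coding length of 456 bases, from 75 for RPL41 to 1281 for RPL4, beside 1278 over nuclear protein-coding genes. Their level had a Spearman coefficient of -0.137 with coding length over the 77 genes. A gene lay on the other strand of 36 core genes, and in 19 it had at least 10 FPKM, the highest being UBE2S at RPL28 with 205 FPKM. None of these was higher than the core gene it overlaps; with the strand handling of the counting unknown, reads of the 2 strands may not be separated.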
